A study of Mus musculus with 9 samples.

Results

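The 9 genes described here, Pou5f1, Pou3f1, Otx2, Utf1, Fgf5, Sall2, Sall4, Lin28a and Lin28b, are genes of formative and primed pluripotency. They were taken by symbol from a count table of 23453 gene symbols, in which all 9 have a row. The bulk RNA-seq libraries came from mouse cells in 3 culture states with 3 libraries each. EpiLCs, epiblast-like cells, were made from naive embryonic stem cells over 48 h in medium that held FGF2, Activin A and KSR, a serum replacement, at 1%. The aEpiLCs (anterior epiblast-like cells) were EpiLCs kept for a further 24 h in N2B27 medium, described by the labels as basal, without Activin A or CHIR99021, and the study's methods add KSR at 1%. The pEpiLCs (posterior epiblast-like cells) were EpiLCs kept for the same further 24 h with Activin A (20 ng/ml) and CHIR99021 (3 uM). CHIR99021 is an inhibitor of the kinase GSK3 that activates Wnt/β-catenin signalling. The study's methods give the pEpiLC medium KSR at 1% as well, and list FGF2 for neither of the later media. The study describes the cells as wild-type and names no line for these libraries, and the labels give the tissue as embryo although the cells were grown in vitro. EpiLCs were harvested a day earlier than the other states, so a difference from EpiLC combines the medium with the extra day, whereas aEpiLCs and pEpiLCs had been cultured for the same time.

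Formative pluripotency is the state between naive cells of the pre-implantation embryo and primed cells of the late epiblast, in which the naive network has been shut down and cells become able to respond to signals that induce germ layers or germ cells. OCT4, the product of Pou5f1, is shared by all pluripotent states, while OTX2, OCT6 (the product of Pou3f1) and FGF5 are commonly used to recognise the post-implantation states. The study counts Utf1 among known SOX2 targets of embryonic stem cells, and found it not downregulated as these became epiblast stem cells. SALL4 and SALL2 are zinc finger factors of one family, and LIN28A and LIN28B are RNA-binding proteins that keep let-7 microRNAs from maturing.

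Total counts lay between 20560564 and 23417917 per library, so that 3 counts, the detection floor, corresponded to 0.130 to 0.143 CPM, and every member lay far above it in every library. CPM values are counts relative to the TMM-normalized library total. pEpiLC replicate 1 stood apart: 323 and 333 of 15797 genes differed by more than 4-fold between it and pEpiLC replicates 2 and 3, against 57 to 76 genes in the other pairs of replicates. A list of 16 primitive streak and mesoderm markers, fixed as a check on the cultures, summed to 7.31 to 12.0 CPM in the EpiLC and aEpiLC libraries. The same sum was 2780 CPM in pEpiLC replicate 1, and 524 and 512 CPM in replicates 2 and 3. Of these 16 markers, 1 exceeded 1 CPM in all 3 EpiLC libraries, 2 in all aEpiLC libraries and 8 in all pEpiLC libraries, and 5 in EpiLC, 7 in aEpiLC and 0 in pEpiLC were at 3 counts or fewer in every library. Mesp1, a factor of nascent mesoderm, was at 71.2 CPM in pEpiLC replicate 1, at 0 in replicate 2 and at 0.092 in replicate 3. Of 14 neural markers 12 had a row, and their sum was 151 to 185 CPM in EpiLC, 440 to 502 CPM in aEpiLC and 181 to 239 CPM in pEpiLC. Nes, an intermediate filament gene, made up most of that sum (81.5 to 110, 292 to 335 and 148 to 203 CPM), and Tubb3, a neuronal tubulin, went from 52.9 to 61.3 CPM in EpiLC to 92.6 to 120 in aEpiLC and 6.11 to 15.4 in pEpiLC. Of the defining neural factors, Sox1 was at 1.47 CPM or less and Pax6 at 2.16 CPM or less in every library. Of 8 feeder fibroblast markers 6 had a row and summed to 51.1 CPM or less in every library. For extraembryonic endoderm, 10 of 12 markers had a row and summed to 79.7 to 91.0 CPM in EpiLC, 175 to 181 in aEpiLC and 79.8 to 121 in pEpiLC. Sparc, a matrix protein gene, made up most of it (65.1 to 76.0, 156 to 163 and 43.1 to 74.8 CPM) in every library but pEpiLC replicate 1. Gata6 and Gata4, transcription factors of this list, were at 46.6 and 12.4 CPM in pEpiLC replicate 1 and at 0.506 CPM or less in each of the other 8 libraries. Sox17 (4.68 CPM) and Apob (7.02 CPM) were also highest there, but Sox7 and Apoa1 were at 0 CPM and Sparc was at its lowest. The same library held Lhx1 at 209 CPM and Gsc at 83.8 CPM, both from the streak and mesoderm list. Which cells carried Gata6 and Gata4 was not tested. The 8 trophoblast markers summed to 54.4 to 72.1 CPM in EpiLC, 147 to 175 in aEpiLC and 67.1 to 69.5 in pEpiLC, most of it from the keratin genes Krt8 and Krt18, while Elf5, a defining trophoblast factor, was at 0.138 CPM or less in every library. The 9 primordial germ cell markers summed to 52.4 to 62.4, 46.4 to 52.5 and 68.7 to 85.5 CPM in the same order. Kit, Ddx4 and Dnd1 made up most of these sums, with Kit at 39.3 to 47.3 CPM in pEpiLC. Prdm14 stayed at 0.191 CPM or less and Nanos3 at 0.573 CPM or less in every library. Prdm1 and Tfap2c were highest in pEpiLC replicate 1, at 4.15 and 5.97 CPM.

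For each pair of states, edgeR's quasi-likelihood test was run on the 6 libraries concerned. A gene passed the test at a Benjamini-Hochberg adjusted p below 0.05 over all genes tested, and was called when its log2 fold change was also at least 1 in size. The comparisons share libraries in pairs, so their results are given side by side and not as independent of each other. With 3 libraries against 3, an exact permutation test of a single gene cannot go below p = 0.1, so none is given. The labels do not say whether replicates came from separate cultures, so the p-values measure the spread between these libraries, which may be technical.

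aEpiLCs and EpiLCs differed in most members by a modest amount. Otx2, Fgf5, Sall2, Sall4, Lin28a and Lin28b rose, Pou5f1 and Utf1 fell, and Pou3f1 did not pass the test. Thus 6 of 9 members were higher and 2 lower, beside 24.0% and 22.6% of all 15301 genes tested. The log2 fold changes of the 6 members that rose lay between 0.35 and 0.60, and 0 of 9 members were called, beside 7.25% of all genes called higher and 5.24% called lower. The median log2 fold change was 0.42 over the 9 members and 0.00226 over all genes tested.

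Between pEpiLCs and EpiLCs fewer members passed the test, but the largest changes were greater. The number that passed depended on the spread of the pEpiLC libraries. Without pEpiLC replicate 1, Sall4 and Lin28b passed as well (adjusted p = 0.000972 and 0.00184). Pou3f1, Utf1, Sall2 and Otx2 fell and Fgf5 rose, so 4 of 9 members were lower and 1 higher, beside 21.4% and 22.8% of 15288 genes. Pou3f1, Utf1 and Sall2 were called lower, beside 8.13% of all genes, and Fgf5 was called higher, beside 7.71%. The median was -0.22 over the members and 0.0167 over all genes.

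pEpiLCs and aEpiLCs, which had the same time in culture, differed in 7 of 9 members. Pou3f1, Utf1, Sall2, Otx2, Lin28a and Sall4 were lower in pEpiLC and Fgf5 was higher. These 6 and 1 members stand beside 9.30% of 15198 genes that were lower and 6.28% that were higher. Pou3f1, Utf1, Sall2 and Otx2 were called lower, beside 4.74% of all genes, and 0 members were called higher, beside 2.55%. The median was -0.42 over the members and 0.0119 over all genes. In bulk samples, fewer cells that express a gene and less RNA per cell cannot be told apart. When an aEpiLC replicate was left out, the number of genes called fell from 1108 to 648 without replicate 1, 514 without replicate 2 and 583 without replicate 3. Between 3 and 4 members remained called when any library of this comparison was left out.

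**Figure D1:**
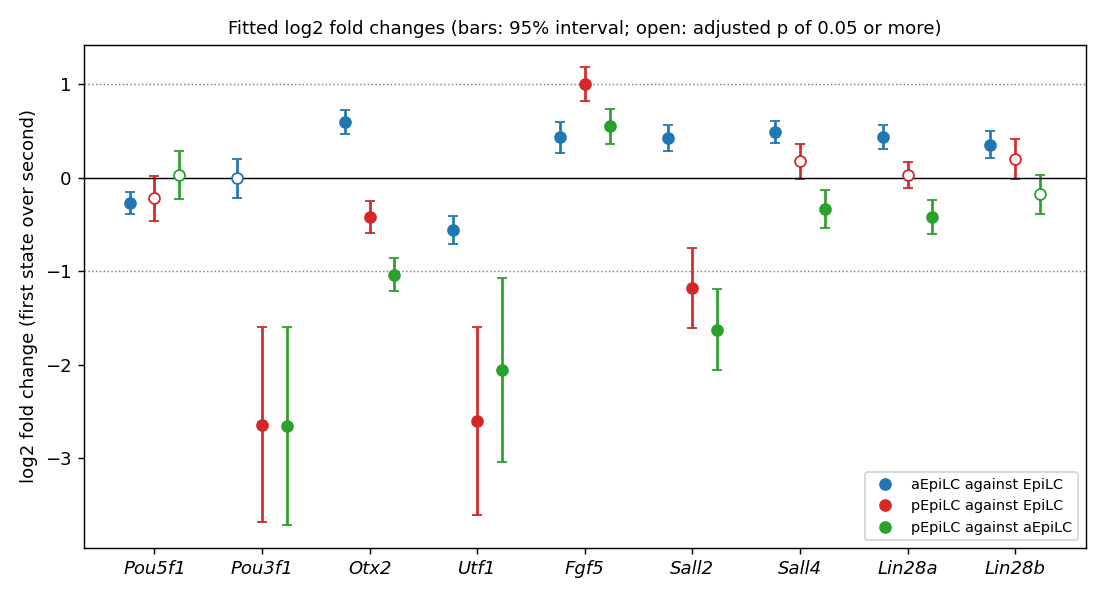
Fitted log2 fold change of each member in the 3 comparisons (vertical axis, first state over second, with aEpiLC against EpiLC in blue, pEpiLC against EpiLC in red and pEpiLC against aEpiLC in green), with 95% intervals as bars, filled points for genes that passed the test and open points for those that did not. The dotted lines mark a log2 fold change of 1 in either direction, and the lowest points are Pou3f1 at -2.65 and -2.64 and Utf1 at -2.60 and -2.06.

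Pou5f1 encodes OCT4, the POU-domain factor on which pluripotent cells depend. The gene lies on chromosome 17 of GRCm38 at chr17:35506018-35510772 on the plus strand (ENSMUSG00000024406.16). Its level was 1128, 1119 and 1139 CPM in the EpiLC libraries, 879, 966 and 960 CPM in aEpiLC, and 790, 1068 and 1006 CPM in pEpiLC. Every EpiLC library was above every aEpiLC and pEpiLC library, while the pEpiLC libraries spanned the aEpiLC range. Folds between states, and percentages of another state's level, are those of the fit and not ratios of the mean CPM. In aEpiLC, Pou5f1 was at 83.0% of the EpiLC level, a log2 fold change of -0.27 (SE 0.0566, adjusted p = 0.00162), with adjusted p = 0.05 and not below it when all 9 libraries were fitted together. In pEpiLC the log2 fold change from EpiLC was -0.22 (SE 0.103, adjusted p = 0.122, 95% interval -0.46 to 0.0213), and -0.0958 without pEpiLC replicate 1 (adjusted p = 0.078). Between pEpiLC and aEpiLC it was 0.0301 (adjusted p = 0.886, 95% interval -0.23 to 0.29).

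Pou3f1 encodes OCT6, a POU factor of the post-implantation epiblast and of neural and Schwann cells. It is a gene of 1 exon at chr4:124656807-124660655 on the plus strand (ENSMUSG00000090125.3). The EpiLC libraries held 228, 193 and 193 CPM and the aEpiLC libraries 215, 170 and 225 CPM, and these groups overlapped. The pEpiLC libraries held 10.5, 42.5 and 43.7 CPM, all below every library of the other states. In the fit it fell 6.24-fold from EpiLC to pEpiLC, a log2 fold change of -2.64 (SE 0.448, adjusted p = 0.00314). Against aEpiLC it was 6.30-fold lower, a log2 fold change of -2.65 (SE 0.455, adjusted p = 0.00964). From EpiLC to aEpiLC the log2 fold change was -0.00683 (adjusted p = 0.961, 95% interval -0.21 to 0.20). Without pEpiLC replicate 1, in which Pou3f1 was lowest and the streak and mesoderm markers highest, the log2 fold changes were -2.22 against EpiLC (adjusted p = 2.66e-11) and -2.23 against aEpiLC (adjusted p = 1.26e-07). Of all 9 members Pou3f1 had the greatest absolute log2 fold change in both comparisons of pEpiLC. Against EpiLC its lead over Utf1 (-2.60, SE 0.431) was smaller than either standard error, so the order of these genes is not settled there. Pou3f1 ranked 78 from the lowest log2 fold change of 15198 genes between pEpiLC and aEpiLC.

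Utf1, a chromatin-associated protein of undifferentiated embryonic and germ cells, was the other member that fell steeply. The gene is short, with 2 exons at chr7:139943789-139945112 on the plus strand (ENSMUSG00000047751.9). Its levels were 432, 486 and 490 CPM in EpiLC, 291, 330 and 332 CPM in aEpiLC, and 27.2, 103 and 98.2 CPM in pEpiLC. The 3 states did not overlap, and the order EpiLC, aEpiLC, pEpiLC held for every library. From EpiLC to aEpiLC Utf1 fell to 67.8%, a log2 fold change of -0.56 (SE 0.0702, adjusted p = 2.68e-05), but with all 9 libraries in one fit the adjusted p was 0.234. From EpiLC to pEpiLC it fell to 16.5%, a log2 fold change of -2.60 (SE 0.431, adjusted p = 0.00289). Between pEpiLC and aEpiLC the log2 fold change was -2.06 (SE 0.424, adjusted p = 0.0183). This last call was lost without aEpiLC replicate 1, 2 or 3 (adjusted p = 0.0592, 0.0735 and 0.0715), at log2 fold changes of -2.12, -2.03 and -2.03. With pEpiLC replicate 1 left out, Utf1 had log2 fold changes of -2.19 from EpiLC (adjusted p = 2.3e-12) and -1.65 from aEpiLC (adjusted p = 7.93e-08).

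Otx2 encodes a homeodomain factor that is needed in the anterior of the embryo and that accompanies OCT4 to post-implantation enhancers. It lies at chr14:48657677-48673819 on the minus strand (ENSMUSG00000021848.16). Otx2 was at 91.1, 98.8 and 94.9 CPM in EpiLC, 141, 149 and 141 CPM in aEpiLC, and 64.9, 76.2 and 68.6 CPM in pEpiLC. No 2 states overlapped, with aEpiLC highest and pEpiLC lowest. It rose 1.51-fold from EpiLC to aEpiLC (log2 fold change 0.60, SE 0.0602, adjusted p = 3.79e-06) and fell to 74.8% of EpiLC in pEpiLC (log2 fold change -0.42, SE 0.0741, adjusted p = 0.00376). The difference between pEpiLC and aEpiLC was -1.04 on the log2 scale (SE 0.0755, adjusted p = 0.000303), and -0.98 without pEpiLC replicate 1 (adjusted p = 2.64e-06), which is short of the limit for a call. Sall2 was the other member that rose in aEpiLC and fell in pEpiLC.

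Fgf5 encodes a secreted fibroblast growth factor that appears in the epiblast after implantation. The gene lies at chr5:98254184-98277030 on the plus strand (ENSMUSG00000029337.2). Its level was 90.5, 77.4 and 88.3 CPM in EpiLC, 127, 108 and 110 CPM in aEpiLC, and 167, 178 and 159 CPM in pEpiLC. The states did not overlap, and Fgf5 was the only member whose 3 pEpiLC libraries all lay above every library of both other states. From EpiLC it rose 1.35-fold in aEpiLC (log2 fold change 0.43, SE 0.0784, adjusted p = 0.000566) and 2.00-fold in pEpiLC (log2 fold change 1.00, SE 0.0769, adjusted p = 0.000151). Against aEpiLC, pEpiLC was 1.46-fold higher (log2 fold change 0.55, SE 0.0817, adjusted p = 0.00541). The call against EpiLC rested on a value at the limit of 1: it was 0.99 with RLE size factors, in DESeq2 and with at least 10 counts in every library, 0.98 with all 9 libraries in one fit, 0.93 without EpiLC replicate 2 and 0.95 without pEpiLC replicate 2, with an adjusted p of at most 0.0014 in each. Fgf5 was close to equal in the pEpiLC replicates, unlike Pou3f1 and Utf1.

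**Figure D2:**
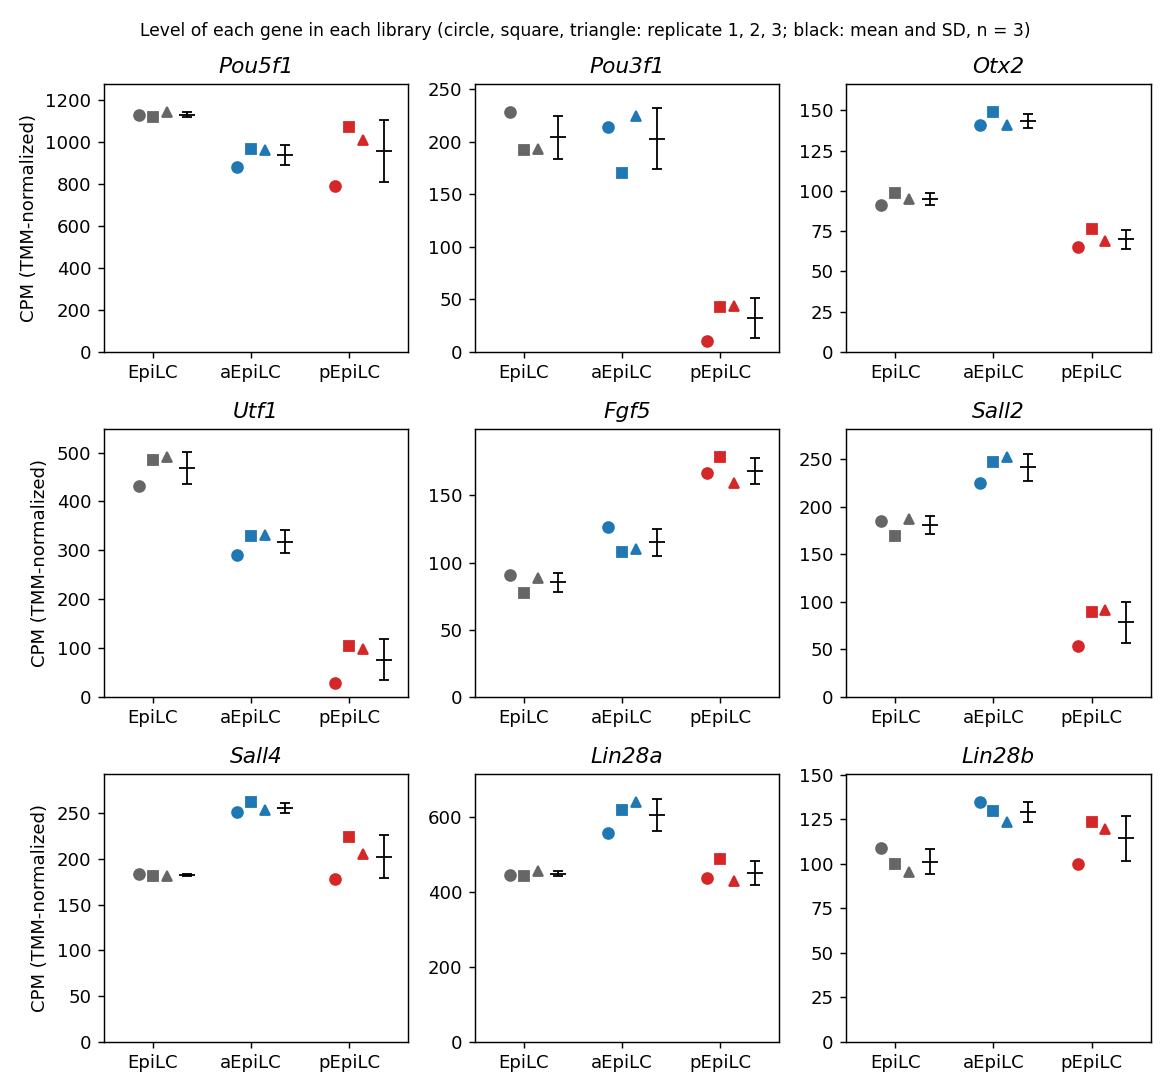
CPM of each member (vertical axes, from 0) in the 9 libraries, with circles, squares and triangles for replicates 1, 2 and 3 and the mean and SD of the 3 libraries in black. Pou3f1, Utf1 and Sall2 are lowest in the pEpiLC libraries and lowest of all in pEpiLC replicate 1, whereas Fgf5 is highest in pEpiLC, at 159 to 178 CPM.

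The promoters of a member that fell in pEpiLC, a member that rose there and the member with the highest level in each state are shown for comparison, each as the 250 bases before a RefSeq start site on the plus strand of GRCm38.p6. They are those of Utf1 (chr7:139943606-139943855), Fgf5 (chr5:98253934-98254183) and Pou5f1 (chr17:35505782-35506031). Capitals mark matches to 8 short motifs searched on both strands, which were the octamer read by POU factors (ATGCAAAT), a SOX core (ACAAAG), a TCF/LEF core (ATCAAAG), an OTX core (TAATCC), the TATA box (TATAAA), the CCAAT box (CCAAT), the GC box (GGGCGG) and the E-box (CACGTG).
Utf1: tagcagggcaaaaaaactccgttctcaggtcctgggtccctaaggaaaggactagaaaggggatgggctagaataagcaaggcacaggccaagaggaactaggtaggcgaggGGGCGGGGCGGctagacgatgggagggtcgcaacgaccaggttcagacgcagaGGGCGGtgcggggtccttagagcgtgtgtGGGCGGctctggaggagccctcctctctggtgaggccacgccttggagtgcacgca
Fgf5: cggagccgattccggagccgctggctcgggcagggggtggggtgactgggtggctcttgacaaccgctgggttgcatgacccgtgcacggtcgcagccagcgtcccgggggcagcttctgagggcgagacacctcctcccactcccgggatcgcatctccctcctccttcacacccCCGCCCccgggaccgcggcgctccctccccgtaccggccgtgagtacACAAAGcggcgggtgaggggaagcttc
Pou5f1: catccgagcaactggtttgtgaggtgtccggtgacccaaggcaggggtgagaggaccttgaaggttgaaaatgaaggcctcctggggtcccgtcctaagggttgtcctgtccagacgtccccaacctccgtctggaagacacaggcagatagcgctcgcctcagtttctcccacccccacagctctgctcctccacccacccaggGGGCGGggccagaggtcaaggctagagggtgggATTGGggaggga

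The Utf1 window held 4 GC boxes, of which the pair farthest from the start site share a base, and 14 CpG dinucleotides. The Fgf5 window held 1 GC box, 1 SOX core at 27 bases before the start site, and 24 CpG dinucleotides, more than 88.0% of all 32851 windows of this length. The Pou5f1 window held 1 GC box and 1 CCAAT box, both within 45 bases of the start site, and 8 CpG dinucleotides. The median over all windows was 6 CpG dinucleotides and a GC content of 52.4%, against 61.6% for Utf1, 70.8% for Fgf5 and 62.0% for Pou5f1. Windows were available for 7 of 9 members, Pou3f1 and Sall4 having none in the table, and for several start sites of Otx2, Sall2 and Pou5f1, 12 windows in all. Of these 12, 0 held the octamer, 0 the TCF/LEF core, 1 the SOX core, 2 the OTX core, 2 the TATA box, 5 the CCAAT box, 3 the GC box and 1 the E-box. The shares of all windows were 1.60% for the octamer, 3.21% for the TCF/LEF core, 16.5% for the SOX core, 6.25% for the OTX core, 12.4% for the TATA box, 33.8% for the CCAAT box, 32.7% for the GC box and 6.02% for the E-box. The OTX cores lay in a window of Otx2 itself and in a second window of Pou5f1. These matches describe letters only, and the libraries hold no measure of binding.

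Sall2 and Sall4, a pair of spalt-like zinc finger factors, started at a like level and separated in pEpiLC. SALL4 supports embryonic stem cell self-renewal, and SALL2 is expressed in the embryo and the nervous system. Sall2 lies at chr14:52311172-52328762 and Sall4 at chr2:168748332-168767943, both on the minus strand (ENSMUSG00000049532.11 and ENSMUSG00000027547.17). Sall2 was at 185, 170 and 187 CPM in EpiLC, 225, 247 and 252 CPM in aEpiLC, and 53.7, 89.3 and 91.8 CPM in pEpiLC. Its 3 states did not overlap, with aEpiLC highest. Sall4 was at 183, 182 and 182 CPM in EpiLC, 251, 262 and 254 CPM in aEpiLC, and 178, 224 and 206 CPM in pEpiLC. All aEpiLC libraries were above all others, and the pEpiLC libraries spanned the EpiLC level.

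From EpiLC to aEpiLC both genes rose, Sall2 by 0.42 (SE 0.0646, adjusted p = 0.000144) and Sall4 by 0.49 (SE 0.0539, adjusted p = 8.44e-06) on the log2 scale. The adjusted p of Sall2 was 0.0633 with all 9 libraries in one fit. In pEpiLC, Sall2 fell to 44.0% of EpiLC (log2 fold change -1.18, SE 0.184, adjusted p = 0.00224), or -0.97 without pEpiLC replicate 1 (adjusted p = 9.26e-09), which is short of the limit for a call. Against aEpiLC it fell to 32.4% (log2 fold change -1.63, SE 0.187, adjusted p = 0.00181), or -1.41 without pEpiLC replicate 1. From EpiLC to pEpiLC, Sall4 had a log2 fold change of 0.17 (adjusted p = 0.123, 95% interval -0.0177 to 0.37), of 0.26 with pEpiLC replicate 1 left out (adjusted p = 0.000972), and of 0.094 with pEpiLC replicate 2 left out (adjusted p = 0.372). Sall4 was lower in pEpiLC than in aEpiLC (log2 fold change -0.34, SE 0.0872, adjusted p = 0.0388). That result did not pass the test without aEpiLC replicate 1, 2 or 3, without pEpiLC replicate 3, or without a filter on low counts, where the adjusted p was 0.103, 0.14, 0.115, 0.0928 and 0.0504.

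Lin28a and Lin28b encode the paralogous RNA-binding proteins that bind let-7 precursors, and they moved little. Lin28a lies at chr4:134003330-134018841 and Lin28b at chr10:45376620-45486395, both on the minus strand (ENSMUSG00000050966.9 and ENSMUSG00000063804.8). Because let-7 in turn targets both mRNAs through their 3′ untranslated regions, the mature let-7a is shown with its seed, bases 2 to 8, in capitals, as RNA. Below it are 22-base stretches of GRCm38 that end in the complement of the seed, in capitals, 1 from Lin28a (chr4:134005190-134005211), 1 from Lin28b (chr10:45381023-45381044) and 1 from Sall4 (chr2:168748941-168748962), all read on the minus strand from GENCODE transcripts.
let-7a: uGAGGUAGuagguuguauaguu
Lin28a: gcacagcctgttgaaCTACCTC
Lin28b: acccgggcgggaagtCTACCTC
Sall4: agggctttaatttatCTACCTC

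The longest annotated 3′ untranslated region held 2 seed matches in Lin28a, 4 in Lin28b, 1 in Sall4 and 0 in each of the other 6 members, beside 9.02% of 21010 protein-coding genes with a match. In RefSeq, 11 mature let-7 and related miRNA names share this seed. The microRNAs themselves were not measured in these libraries.

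Lin28a was at 447, 443 and 457 CPM in EpiLC, 558, 621 and 641 CPM in aEpiLC, and 437, 489 and 431 CPM in pEpiLC. The aEpiLC libraries lay above all others, and EpiLC and pEpiLC overlapped. Lin28b was at 109, 99.7 and 95.3 CPM in EpiLC, 135, 130 and 123 CPM in aEpiLC, and 99.8, 124 and 119 CPM in pEpiLC, so that pEpiLC overlapped both other states. Both rose from EpiLC to aEpiLC, Lin28a 1.35-fold (log2 fold change 0.44, SE 0.0617, adjusted p = 7.59e-05) and Lin28b 1.28-fold (log2 fold change 0.35, SE 0.0659, adjusted p = 0.000663). From EpiLC to pEpiLC the log2 fold changes were 0.0325 for Lin28a (adjusted p = 0.689, 95% interval -0.11 to 0.17) and 0.20 for Lin28b (adjusted p = 0.117, 95% interval -0.0159 to 0.41). Lin28b passed the test without pEpiLC replicate 1 (log2 fold change 0.29, adjusted p = 0.00184). Lin28a was lower in pEpiLC than in aEpiLC (log2 fold change -0.42, SE 0.0787, adjusted p = 0.0129), and not past the test without aEpiLC replicate 2 or 3 (adjusted p = 0.0676 and 0.0585). Lin28b had a log2 fold change of -0.18 there (adjusted p = 0.224, 95% interval -0.39 to 0.0307), and -0.0832 without pEpiLC replicate 1 (adjusted p = 0.433).

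Levels between genes can be compared only per length, here as CPM per kb of annotated exon. In EpiLC the order was Pou5f1 at 502 ± 4.66 CPM per kb (SD, n = 3), Utf1 at 382 ± 26.6, Lin28a at 112 ± 1.76, Pou3f1 at 53.2 ± 5.31, Fgf5 at 34.2 ± 2.80, Sall2 at 33.2 ± 1.75, Sall4 at 32.9 ± 0.179, Otx2 at 22.5 ± 0.915 and Lin28b at 11.2 ± 0.762. Fgf5, Sall2 and Sall4 overlapped one another, and the other neighbours did not. Pou5f1 ranked 90 and Utf1 131 among 15500 genes with a length. In aEpiLC the order began with Pou5f1 (416 ± 21.5), Utf1 (259 ± 18.8) and Lin28a (152 ± 10.8), then Pou3f1 (52.8 ± 7.56), Sall4 (46.2 ± 1.02), Fgf5 (46.0 ± 4.06) and Sall2 (44.5 ± 2.65), which overlapped, and ended with Otx2 (34.0 ± 1.10) and Lin28b (14.3 ± 0.620). In pEpiLC, Pou5f1 at 425 ± 65.0 CPM per kb was followed by Lin28a at 113 ± 7.96, Fgf5 at 67.2 ± 3.88, Utf1 at 62.1 ± 34.7, Sall4 at 36.6 ± 4.22, Otx2 at 16.6 ± 1.37, Sall2 at 14.4 ± 3.92, Lin28b at 12.6 ± 1.40 and Pou3f1 at 8.38 ± 4.90. There Utf1 overlapped both Fgf5 and Sall4, Sall2 overlapped both Otx2 and Lin28b, and Pou3f1 overlapped Lin28b and Sall2. Utf1 moved from the rank of 131 among 15500 genes in EpiLC to 682 in pEpiLC, and Pou3f1 from 900 to 5156, while Fgf5 moved from 1471 to 619. With the longest transcript in place of all exons as the length, Pou5f1 stayed first in every state, but the order lower down depended on the length. Otx2 went from rank 8 to 5 in EpiLC and from 8 to 4 in aEpiLC, where it passed Pou3f1. Fgf5 went from 5 to 8 in EpiLC and from 6 to 8 in aEpiLC, and Sall2 and Lin28b swapped ranks 7 and 8 in pEpiLC.

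**Figure D3:**
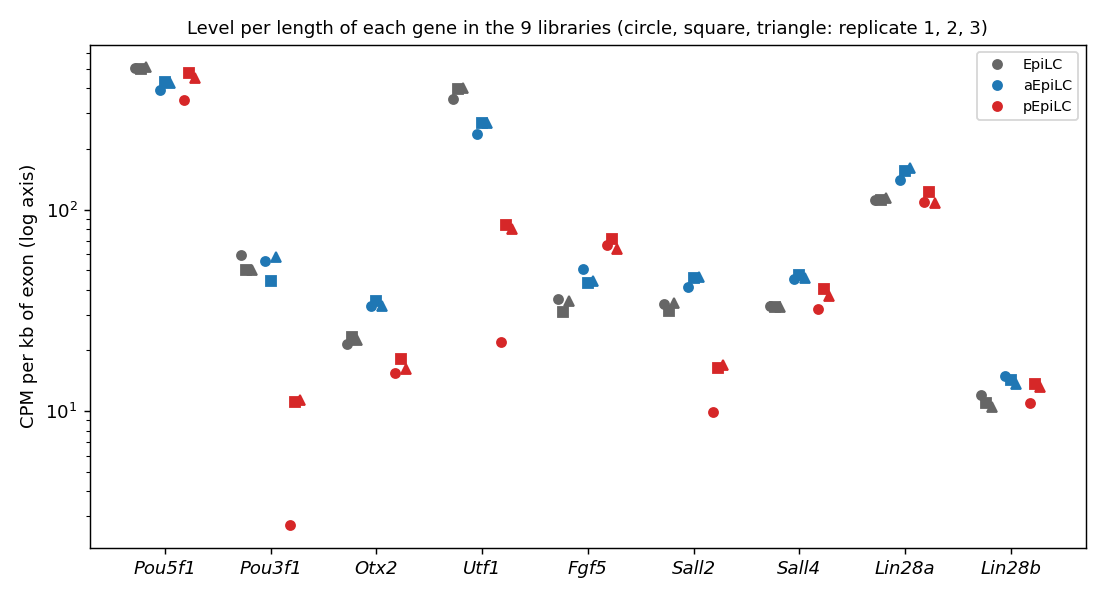
CPM per kb of exon on a log axis for each member in the 9 libraries, coloured by state, with circles, squares and triangles for replicates 1, 2 and 3. Pou5f1 is highest in every state, and Pou3f1 goes from 50.0 to 59.3 CPM per kb in EpiLC to between 2.73 and 11.4 in pEpiLC.

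Ratios within a library do not depend on its scaling. The ratio of Sall4 to Sall2 per kb was 0.954 to 1.05 in EpiLC and 0.989 to 1.09 in aEpiLC, so that the pair was near parity, and 3.24, 2.46 and 2.20 in pEpiLC replicates 1, 2 and 3. The ratio of Pou5f1 to Pou3f1, both POU factors, was 8.46 to 10.1 in EpiLC, 7.01 to 9.72 in aEpiLC, and 129, 43.1 and 39.4 in pEpiLC. The ratio of Pou5f1 to Utf1 was 1.26 to 1.43 in EpiLC, 1.58 to 1.65 in aEpiLC, and 15.9, 5.64 and 5.59 in pEpiLC. The pEpiLC ratios of these 3 pairs lay above those of every EpiLC and aEpiLC library. The ratio of Lin28a to Lin28b was 9.31 to 10.9, 9.41 to 11.8 and 8.19 to 9.92 in EpiLC, aEpiLC and pEpiLC, and the states overlapped.

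**Figure D4:**
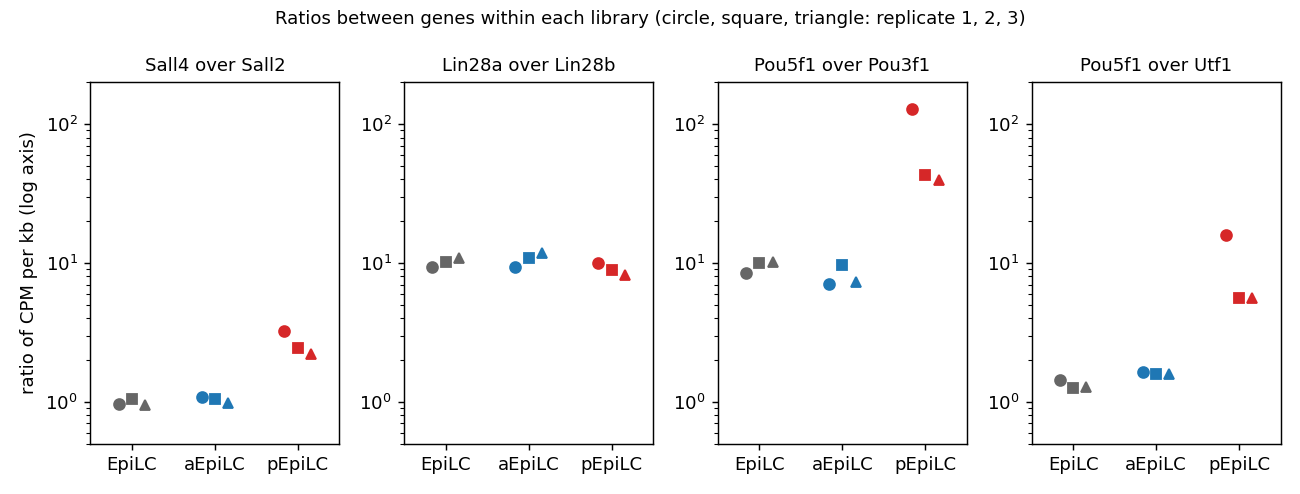
Ratio of CPM per kb between pairs of members within each library, on log axes that share a range, by state, with circles, squares and triangles for replicates 1, 2 and 3. The ratios of Sall4 to Sall2, Pou5f1 to Pou3f1 and Pou5f1 to Utf1 are higher in all 3 pEpiLC libraries than in any other, and the ratio of Lin28a to Lin28b stays between 8.19 and 11.8.

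The members differed in how far pEpiLC replicate 1 lay from the other pEpiLC libraries. On the log2 CPM scale, the difference of replicate 1 from the mean of replicates 2 and 3 was -2.03 for Pou3f1 and -1.89 for Utf1. Of 15797 genes, 113 lay as low in replicate 1 as Pou3f1 and 145 as low as Utf1. Sall2 differed by -0.75, Pou5f1 by -0.39, Lin28b by -0.28 and Sall4 by -0.27, whereas Otx2, Lin28a and Fgf5 differed by -0.16, -0.0712 and -0.0138. In EpiLC and aEpiLC the distance of replicate 1 lay between -0.19 and 0.24 for all 9 members. Pou3f1, Utf1 and Sall2, the members farthest below EpiLC in pEpiLC, were also the farthest below the other pEpiLC libraries in replicate 1, and they were still the farthest below EpiLC without it. T (brachyury), a factor of the primitive streak, was at 1090 CPM in this library and at 204 and 220 CPM in the other pEpiLC libraries. Sox2, the pluripotency factor that often pairs with OCT4, was at 11.6 CPM there and at 34.5 and 24.4 CPM in the others. The part of the streak and mesoderm markers in the levels of the members was not tested.

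**Figure D5:**
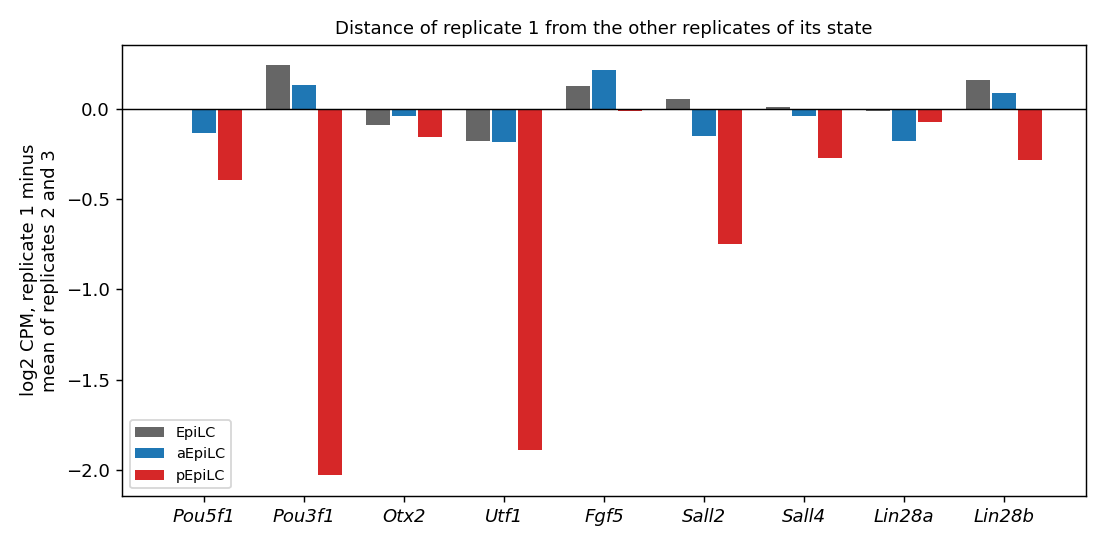
Bars give, for each member and state, the log2 CPM of replicate 1 minus the mean of replicates 2 and 3 of that state. In pEpiLC the bars of Pou3f1 and Utf1 reach -2.03 and -1.89 and that of Sall2 -0.75, while the EpiLC and aEpiLC bars lie between -0.19 and 0.24.

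Of other genes of the post-implantation epiblast, a list of 24, more passed the test lower than higher in each comparison, whereas more members were higher than lower in aEpiLC against EpiLC. From EpiLC to aEpiLC 6 list genes passed higher and 11 lower, with a median log2 fold change of -0.12, which was -0.176 without EpiLC replicate 2 and -0.0748 without EpiLC replicate 3. The called genes with the greatest change were Tdgf1, the NODAL co-receptor (-4.01, adjusted p = 4.22e-10), the forkhead gene Foxd4 (from 0.1545 to 1.52 CPM, adjusted p = 3.88e-05) and Dnmt3l, a cofactor of DNA methyltransferases (-3.12, adjusted p = 3.07e-09). From EpiLC to pEpiLC 6 of 23 tested genes passed higher and 13 lower, with a median of -0.62. Dnmt3l (-3.44, adjusted p = 0.000115), Foxd3, another forkhead gene (-3.08, adjusted p = 0.0153), and the cadherin gene Cdh2 (3.08, adjusted p = 0.0415) changed most. Foxd3 had 749 to 936 counts in the EpiLC libraries, 161 and 132 counts in pEpiLC replicates 2 and 3, and 1 count in pEpiLC replicate 1. Cdh2 was at 275 CPM in pEpiLC replicate 1 but at 21.5 and 19.8 CPM in the others, against 10.7 to 15.5 CPM in EpiLC. Between pEpiLC and aEpiLC 4 passed higher and 10 lower, with a median of -0.39. Foxd3 was lower in pEpiLC (-3.25, adjusted p = 0.0305), as were Sox3 (-1.93, adjusted p = 0.0108), Mycn, a growth-promoting MYC factor (-1.34, adjusted p = 0.011), and Tcf7l1, a repressor of Wnt targets (-1.26, adjusted p = 0.00524). Tdgf1 was higher in pEpiLC (4.88, adjusted p = 7.51e-05), as were Nodal (2.83, adjusted p = 0.000363) and the ephrin receptor gene Epha2 (2.58, adjusted p = 0.000448). Foxd4 was lower in pEpiLC (adjusted p = 0.0013), with at most 1 count in each pEpiLC library against 28 to 40 counts in aEpiLC.

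Of 20 genes of the core and naive network, 16, 17 and 15 were tested in aEpiLC against EpiLC, pEpiLC against EpiLC and pEpiLC against aEpiLC. From EpiLC to aEpiLC 2 passed higher and 8 lower, from EpiLC to pEpiLC 1 higher and 7 lower, and between pEpiLC and aEpiLC 3 higher and 4 lower. The medians were -0.42, -0.57 and -0.24, and the last was 0.019 without aEpiLC replicate 1, -0.0773 without pEpiLC replicate 2 and -0.147 without pEpiLC replicate 3. In aEpiLC against EpiLC the called genes with the greatest change were Dppa5a, a naive-state marker (-3.01, adjusted p = 4.69e-11), Dppa2, a chromatin factor gene (-1.90, adjusted p = 5.5e-09), and the nuclear receptor gene Nr0b1 (-1.61, adjusted p = 1.79e-05). From EpiLC to pEpiLC they were Nanog, the homeobox factor (3.57, adjusted p = 0.000279), Nr0b1 (-3.33, adjusted p = 0.000549) and Dppa3 (adjusted p = 0.0051), the last with 15 to 22 counts in the EpiLC libraries and 1 to 5 in pEpiLC. Between pEpiLC and aEpiLC they were Nanog (3.38, adjusted p = 0.00169), Sox2 (-2.11, adjusted p = 0.00611) and the Krüppel-like factor gene Klf2 (-1.83, adjusted p = 0.0107). Nanog was at 17.1 to 17.6 CPM in EpiLC, 14.2 to 26.9 CPM in aEpiLC, and 105, 248 and 255 CPM in pEpiLC. Sox2 was at 55.2 to 65.7 CPM in EpiLC, 98.5 to 105 CPM in aEpiLC and 11.6 to 34.5 CPM in pEpiLC.

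Relatives of the members in the POU, OTX and SALL families were mostly low, apart from Pou2f1, Sall1 and, in pEpiLC, Sall3. Of 16 relatives, 9, 11 and 11 were tested in the same order of comparisons, with 1 higher and 2 lower, 3 higher and 3 lower, and 3 higher and 1 lower. The medians were -0.30, 0.30 and -0.20, and the first stayed below 0 whichever library was left out, whereas the other two turned sign. With single libraries left out the medians ranged from -0.336 to -0.016 (without EpiLC replicate 1), from -0.0612 (without pEpiLC replicate 3) to 0.519 (without EpiLC replicate 3), and from -0.118 to 0.478 (without aEpiLC replicate 2). Sall1 was at 289, 296 and 325 CPM in EpiLC, 163, 174 and 144 CPM in aEpiLC, and 137, 55.4 and 56.0 CPM in pEpiLC, and it fell from EpiLC by 0.92 (adjusted p = 5.63e-07) and 1.85 (adjusted p = 0.00424) on the log2 scale. Unlike Sall2, Sall1 was highest among the pEpiLC libraries in replicate 1. Sall3 went the other way, from 0.991 to 1.40 CPM in EpiLC to 3.60 to 5.59 CPM in aEpiLC and 25.4 to 62.4 CPM in pEpiLC, a log2 fold change of 4.96 from EpiLC to pEpiLC (SE 0.424, adjusted p = 0.000215). Among POU genes, Pou6f1 rose from a mean of 2.36 CPM in EpiLC to 8.03 CPM in pEpiLC (log2 fold change 1.79, adjusted p = 0.00109). Pou2f3 fell from EpiLC to aEpiLC (log2 fold change -1.22, adjusted p = 0.00036).

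The 21 other genes of the LIN28 and let-7 pathway, which process let-7 or are among its known targets, were all tested. From EpiLC to aEpiLC 6 passed higher and 4 lower, from EpiLC to pEpiLC 7 higher and 7 lower, and between pEpiLC and aEpiLC 2 higher and 2 lower, with medians of -0.0342, 0.11 and 0.0825. With single libraries left out the first ranged from -0.0776 (without EpiLC replicate 1) to -0.00682 (without EpiLC replicate 3), the second from 0.0469 (without pEpiLC replicate 1) to 0.146, and the third from 0.0493 (without pEpiLC replicate 1) to 0.15 (without pEpiLC replicate 3). Arid3a, a DNA-binding factor gene, rose from EpiLC to aEpiLC (1.33, adjusted p = 1.44e-06) and to pEpiLC (1.43, adjusted p = 0.00418). Ccnd2, a cyclin of the G1 phase, rose in pEpiLC (2.88 against EpiLC, adjusted p = 4.04e-05, and 2.18 against aEpiLC, adjusted p = 0.000267). Arid3b was higher in pEpiLC as well (1.54 against EpiLC, adjusted p = 0.00676, and 1.45 against aEpiLC, adjusted p = 0.0218), at 407 CPM in replicate 1 and 179 and 174 CPM in the others. Igf2bp2, an RNA-binding protein gene, fell from EpiLC to pEpiLC (-1.08, adjusted p = 0.000211). Trim71, a let-7 target that is itself expressed in stem cells, fell to a smaller extent in pEpiLC (-0.45 against EpiLC, adjusted p = 0.000428, and -0.50 against aEpiLC, adjusted p = 0.00238).

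The genes most like each member across the 9 libraries were ranked by Pearson r of log2 CPM among 10727 genes with a mean of at least 5 CPM. Since the 9 libraries are 3 states of 3, r mainly reflects the state means. For Pou3f1 they were Txlng (r = 0.997) and Sox3 (r = 0.993), a SOXB1 factor whose means were 45.5, 49.7 and 13.0 CPM in EpiLC, aEpiLC and pEpiLC. For Utf1 they were Fsd1 (0.996) and Rasgrp2 (0.996), the latter falling from 80.1 to 52.2 and 7.85 CPM. For Otx2 they were Spon1 (0.994), with means of 7.27, 50.1 and 1.71 CPM, and Tyro3 (0.991). For Sall2 they were Tubb3 (0.996), with means of 57.3, 109 and 12.3 CPM, and Hs6st1 (0.995). For Fgf5 they were Gcc2 (0.994) and Oat (0.984), for Sall4 Lrrc8c (0.993) and Pls3 (0.992), and for Pou5f1 Syncrip (0.980) and Psmc1 (0.980). For Lin28a they were Acta2 (0.968) and Ppp2r5c (0.968), and for Lin28b Zfp266 (0.979) and Chd1 (0.976).

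In GENCODE, exons of 5 of the 9 members overlap exons of other genes, and whether the libraries kept strand is not stated in the sources used here. The overlap is 317 bp with Gm19553 for Pou5f1, 330 bp with Gm2164 for Pou3f1, 154 bp with Otx2os1 for Otx2, 526 bp with Gm14261 for Sall4 and 234 bp with Gm13061 for Lin28a, all on the opposite strand, and 168 bp with Gm49154 on the same strand for Otx2. Reads from such stretches may have been assigned to either gene, though Gm2164 has no row in the count table. Utf1, Fgf5, Sall2 and Lin28b have no such overlap.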

How the data were processed

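RNA was measured in 9 libraries, 3 per state. The deposited table holds, for every gene symbol, expected counts that the authors obtained with RSEM 1.3.1 after alignment by STAR 2.7.9a (GRCm38), not normalized. Counts were rounded to whole numbers here. The annotation, read cleaning and strandedness are not given in the sources used here. Positions and lengths came from GENCODE vM21, in which 22821 of 23453 symbols (97.3%) matched 1 gene.

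R 4.3.3 with edgeR 4.0.16 (TMM, filterByExpr, glmQLFit and glmQLFTest, Benjamini-Hochberg adjustment) was fitted per comparison. Each standard error is the log2 fold change divided by the root of F, and 95% intervals use the fit's degrees of freedom. log2 CPM values have a prior count of 2. Alternatives were RLE size factors, DESeq2 1.42.0, the likelihood ratio test, limma 3.58.1 voom with sample weights, no filter, at least 10 counts per library, all 9 libraries in one fit, the adjusted p alone, a replicate block, and leaving out each replicate. The fit was tested on simulated data. The members, lists and markers were chosen with earlier results of these data known. All 9 members are named, as are list genes that passed the test, the 3 with the greatest change first, and the 2 genes most like each member. Imp3, listed by mistake in the let-7 pathway, was left out, and Tut4 and Tut7 replaced older symbols. Promoters and let-7a came from RefSeq tables on GRCm38.p6.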

Additional observations from a re-analysis of the deposited data

How the results depend on the processing

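With the adjusted p alone and no limit on fold change, 7130, 6759 and 2369 genes changed in aEpiLC against EpiLC, pEpiLC against EpiLC and pEpiLC against aEpiLC, in place of 1911, 2421 and 1108, and the members changed numbered 8 in the first and 7 in the last. At least 10 counts in every library left 1259 genes called in aEpiLC against EpiLC, where fewer genes were tested. When single replicates were left out, the genes called between pEpiLC and aEpiLC ranged from 514 to 1148. The cause of the lower counts was not tested.

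The direction of a member turned when a replicate was left out only where its main value was near 0. Pou3f1 in aEpiLC against EpiLC ranged from -0.0836 to 0.1089, reaching 0.07692 without EpiLC replicate 1. Lin28a in pEpiLC against EpiLC ranged from -0.02771 to 0.0696, and Pou5f1 in pEpiLC against aEpiLC from -0.05321 to 0.1556, with -0.01297 without aEpiLC replicate 1 and -0.0107 without pEpiLC replicate 3. The medians of short lists moved when a replicate was left out, which changes both the genes tested and their fold changes, and the cause was not tested. For the relatives of the members they ranged from -0.336 to -0.016, from -0.0612 to 0.519 and from -0.118 to 0.478 in the 3 comparisons. For the core and naive genes they ranged from -0.45 to -0.306, from -0.712 to -0.428 and from -0.215 to 0.019. Sall4 and Lin28b passed the test from EpiLC to pEpiLC also with voom sample weights (adjusted p = 0.00404 and 0.0051). The likelihood ratio test, DESeq2 and RLE size factors changed no direction and no pass of a member.

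Same-numbered libraries did not deviate together in every pair, with correlations of -0.0601 to 0.0211 between aEpiLC and EpiLC, 0.0153 to 0.0338 between pEpiLC and EpiLC, and 0.0622 to 0.172 between pEpiLC and aEpiLC, so the numbers were not taken to pair the libraries. In the last of these every library correlated best with its own number, a hint from the data alone. With the replicate block, 1878, 2299 and 1123 genes were called in the order above, and the block changed no pass and no direction of a member. At this depth the members had 220 or more counts in every library.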
